A study of Mus musculus with 9 samples.

Results

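Blocking the integrin subunit β8 in mice that carried β8-expressing tumours was compared with an isotype antibody by RNA sequencing of regulatory T cells (Tregs) from those tumours. The genes described are those whose mean was at least 5 FPKM (fragments mapped to a gene, scaled by transcript length and by the size of the library) in the anti-β8 or the isotype group of the authors' normalized table, and that were also tested. They number 8508 of 12555 tested genes, and another 139 genes met the level but were not tested because fewer than 3 of the 9 libraries of the series reached 1 FPKM. Of the 8508 genes, 7127 met the level in both groups, 818 in anti-β8 only and 563 in isotype only, and 7684 encode proteins. The gene just inside the limit was 3110001I22Rik with a larger group mean of 5.001 FPKM, and the gene just outside was Rgl1 with 4.999 FPKM.

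The anti-β8 group held 3 pools of CD4+ GFP+ cells from wild-type C57BL/6 mice bearing Lewis lung carcinoma (LLC) cells that express β8 (b8 in the labels). These mice received anti-β8 (clone C6D4) intraperitoneally in doses of 7 mg/kg. Treatment began on day 7 after inoculation and was given 2 times weekly, and the tumours were taken on day 14. The isotype group held 3 pools from the same kind of mice and tumours given an isotype control antibody, for which the labels give no separate dose. Each pool combined 3 to 4 mice, so a value is an average over mice. Neither the GFP reporter, nor the promoter that drives β8 in the tumour cells, nor the library batches are described in the labels. A further 3 pools from Mock LLC tumours of untreated mice entered the linear model only to estimate the spread of each gene.

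Transforming growth factor β (TGF-β) is secreted in a latent form, and the integrin αvβ8 binds that form and releases the active cytokine. Tregs, which depend on the transcription factor Foxp3, can present latent TGF-β on the surface protein GARP and respond to the active cytokine through SMAD proteins. In tumours they restrain other T cells through inhibitory receptors, cytokines and consumption of interleukin 2.

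The sorted cells carried Treg markers in all 6 pools. Foxp3 measured 119, 132 and 122 FPKM in anti-β8 pools 1, 2 and 3, against 100.3, 73.2 and 113 FPKM in isotype pools 1, 2 and 3, and values below follow that order of pools. Cd3e, a T cell receptor subunit, measured 829.95, 672 and 682 FPKM in anti-β8 and 665, 665 and 823 FPKM in isotype. The anti-β8 pools were unequal in depth of detection. Before normalization 11785 genes reached 1 FPKM in anti-β8 pool 1 but 9772 in pool 2 and 9283 in pool 3, against 12000 to 12177 in isotype. Of the 8508 genes, 78, 391 and 514 had a listed value of 0 in anti-β8, against 53 to 79 in the isotype pools. A difference was therefore read in anti-β8 pool 1 as well. Pool 1 is said below to share a difference where it lay beyond all 3 isotype pools on the side of the group difference. For a gene whose groups do not overlap this follows from the definition, so it is no second check there. Only the size of the pool 1 difference adds to it.

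P-values below set each difference against 1 spread per gene, estimated over all 9 libraries and taken as equal in all groups. They do not measure the separate spread of the anti-β8 or the isotype pools. The spread between anti-β8 pools depended on the level of the gene. For genes averaging 5 to 10 FPKM over the 9 libraries, the pooled standard deviation (SD) of log2(FPKM + 1) was 1.14 in anti-β8 and 0.522 in isotype, and 17.2% of these genes were listed at 0 in anti-β8 pool 2 or 3. At 300 FPKM or more the SD was 0.358 in anti-β8 and 0.387 in isotype, with 0.236% of genes at 0 there. Abundant genes were thus measured about as evenly in both groups, and genes under 100 FPKM were not.

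**Figure D1:**
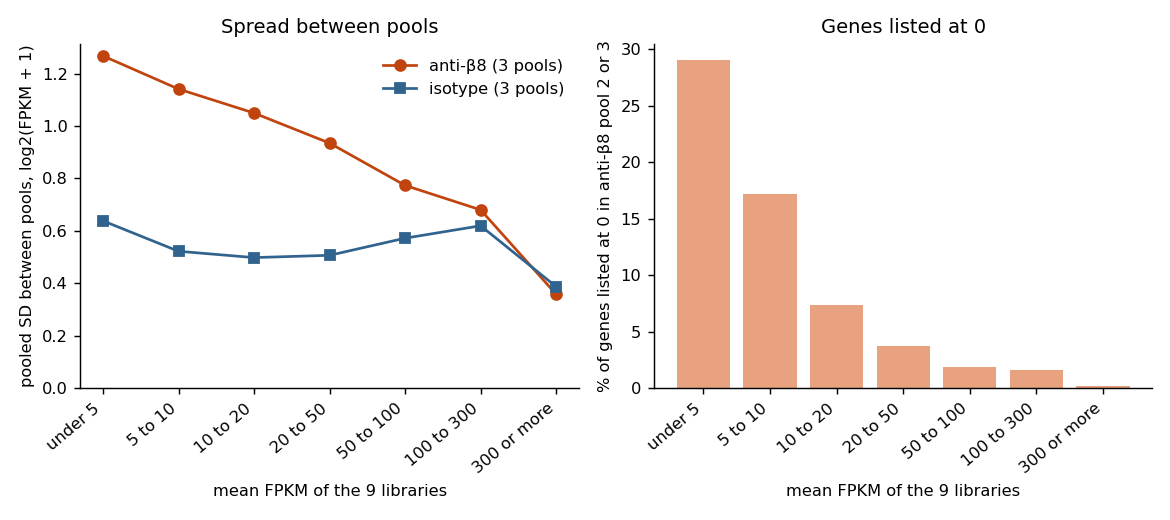
Left, pooled SD between the 3 pools of each group on the log2(FPKM + 1) scale, by mean FPKM of the 9 libraries; right, percentage of the genes listed at 0 in anti-β8 pool 2 or 3 in the same bins. The anti-β8 SD is 1.14 at 5 to 10 FPKM and 0.358 at 300 FPKM or more, against 0.522 and 0.387 in isotype.

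Of the 8508 genes, 7 were lower in anti-β8 at an adjusted p under 0.05 (limma, Benjamini-Hochberg over all 12555 tested genes) and 0 were higher. Over all tested genes 0.0558% were called lower and 0.00796% higher, and all 7 lower calls fell among the genes described. The 1 higher call in the series was mt-Atp8, a short mitochondrial gene below 5 FPKM that measured 4.11, 3.21 and 4.36 FPKM in anti-β8 and was listed at 0 in the 3 isotype pools. At an unadjusted limma p under 0.05, 602 of the genes were lower and 331 higher, which is 7.08% and 3.89%, against 6.2% and 3.97% of all tested genes. The 3 anti-β8 pools all lay below the 3 isotype pools for 659 genes (7.75%, against 7.63% of all tested genes) and all above them for 588 genes (6.91%, against 7.34%). Both shares were near those of all tested genes. The log2 difference, anti-β8 minus isotype on the log2(FPKM + 1) scale, was below 0 for 54.1% of the 8508 genes. Its median was -0.049 over these genes and -0.036 over all tested genes. In the unnormalized table that median was -0.20. In bulk samples of this kind, fewer cells of a type and less RNA per cell cannot be told apart.

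Anti-β8 pool 1 shared 446 of the 602 lower genes at the unadjusted threshold and lay on the other side of the isotype mean for 37. It shared 270 of the 331 higher genes and opposed 8. Genes listed at 0 in anti-β8 pool 2 or 3 made up 156 of the lower genes and 1 of the higher ones. Among the 7701 genes above 0 in all 6 pools, the shares without overlap were 7.26% lower and 7.53% higher. The count of 7 rested on single libraries: it was 137 without anti-β8 pool 1 (21 higher and 116 lower, 37 of them listed at 0 in both remaining anti-β8 pools) and 2 to 5 without any other library. All 7 passed without anti-β8 pool 1, but only Snord83b and Mir1938 passed without each of the 9 libraries in turn.

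**Figure D2:**
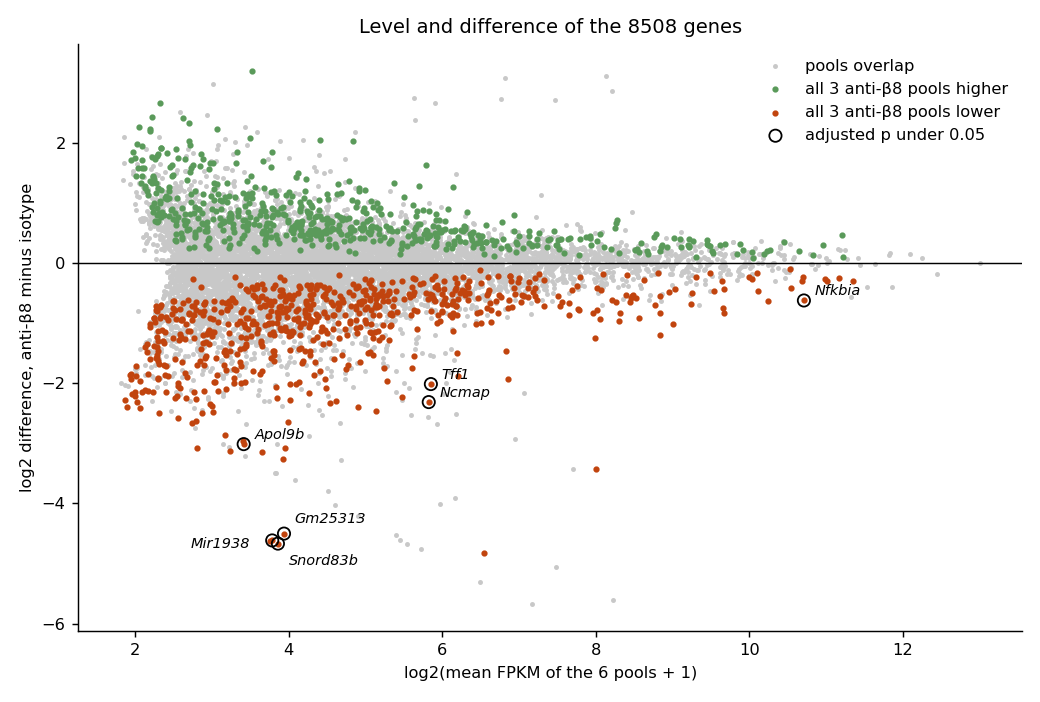
Log2 difference (anti-β8 minus isotype) against log2(mean FPKM of the 6 pools + 1) for the 8508 genes. Green points lie above and orange points below all isotype pools (588 and 659 genes), grey points overlap, and black circles mark the 7 genes at an adjusted p under 0.05, all lower in anti-β8.

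Nfkbia encodes IκBα, which holds NF-κB in the cytoplasm and is itself an NF-κB target. It measured 1398, 1386 and 1183 FPKM in anti-β8, against 1958, 2151 and 1989 FPKM in isotype. Every anti-β8 pool lay below every isotype pool, with means of 1323 ± 121 and 2032 ± 103 FPKM (SD, n = 3 pools each). Nfkbia fell by 0.62 on the log2 scale (standard error, SE, 0.087; limma adjusted p = 0.0408), and pool 1 shared the difference at -0.54. It was by far the most abundant of the called genes and lies in the range where both groups were measured evenly. With 1 library left out at a time, its limma adjusted p ranged from 0.0281 without anti-β8 pool 1 to 0.221, and it passed in 1 of 9 such fits. Leaving out any other library, of whichever group, ended the call.

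Tff1 encodes a secreted trefoil peptide best known from mucosal epithelium. Its values were 17.4, 28.1 and 20.6 FPKM in anti-β8 and 71.7, 109 and 94.5 FPKM in isotype. The groups did not overlap, and Tff1 fell by 2.01 on the log2 scale (SE 0.27, limma adjusted p = 0.0408). Pool 1 was the lowest pool, at -2.31 from the isotype mean. Ncmap, which encodes a membrane protein first described in noncompact myelin, measured 31.1, 15.6 and 11.1 FPKM in anti-β8, against 91.9, 108 and 77.1 FPKM in isotype. Again no pools overlapped, and Ncmap fell by 2.31 (SE 0.32, limma adjusted p = 0.0408). Here pool 1 was the highest anti-β8 pool, at -1.53, and shared the difference. Apol9b, of the apolipoprotein L family, measured 2.44 and 2.29 FPKM in anti-β8 pools 1 and 2 and was listed at 0 in pool 3, against 16.1, 19.4 and 17.7 FPKM in isotype. All anti-β8 pools were far below the isotype pools, and Apol9b fell by 3.01 (SE 0.45, limma adjusted p = 0.0497), a difference that pool 1 shared at -2.44. Its neighbour Apol9a is near-identical, so reads may be split between the 2 genes. With each library left out in turn, Tff1 and Ncmap each passed in 2 and Apol9b in 3 of 9 fits, with limma adjusted p up to 0.221, 0.252 and 0.296. Tff1 lost its call without anti-β8 pool 3 and Ncmap without anti-β8 pool 2, and all 3 lost it without any 1 of the isotype or mock pools.

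**Figure D3:**
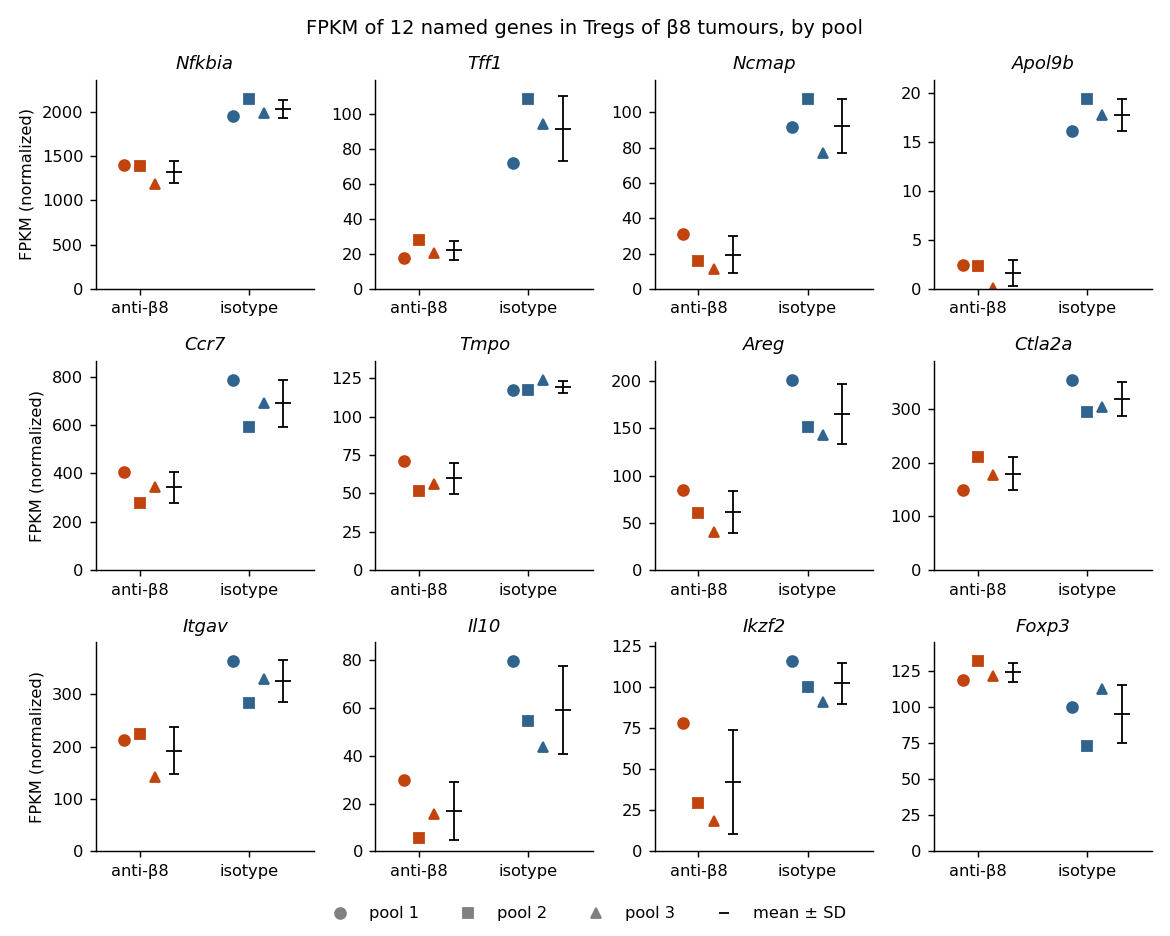
FPKM of 12 named genes by pool, with anti-β8 pools on the left and isotype pools on the right of each panel; black bars are mean ± SD of 3 pools. Foxp3 is the only one of the 12 that lies higher in anti-β8 (119, 132 and 122 FPKM, against 100.3, 73.2 and 113 FPKM in isotype), and Nfkbia, Tff1, Ncmap and Apol9b are the 4 that passed the adjusted threshold.

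The remaining NF-κB genes did not follow Nfkbia past the threshold. Tnfaip3, which encodes the deubiquitinase A20 and limits NF-κB signalling, measured 156, 133 and 176 FPKM in anti-β8 and 263, 203 and 275 FPKM in isotype (-0.67 ± 0.17, limma adjusted p = 0.353). Its groups did not overlap and pool 1 shared the difference. Among the 24 NF-κB subunit and feedback genes, Nfkbia and Tnfaip3 were the only 2 whose pools were all lower (8.33%, near the 7.63% of all tested genes), and none had all pools higher. The median log2 difference of that list was -0.11, with 18 genes below 0. Nfkbid and Nfkbib, which encode further IκB proteins, had log2 differences of -0.42 ± 0.20 and -0.26 ± 0.15 with overlapping groups, and pool 1 shared the first but not the second. The upstream sequences of Nfkbia and Tnfaip3 are shown because both genes are textbook NF-κB targets. They are the 250 bases before the gene start in RefSeq (GRCm38.p6), at chr12:55492648-55492897 and chr10:19015411-19015660, both on the minus strand, with capitals at matches to a form of the κB site (GGAA, any 3 bases, then CCC), searched on both strands.
Nfkbia: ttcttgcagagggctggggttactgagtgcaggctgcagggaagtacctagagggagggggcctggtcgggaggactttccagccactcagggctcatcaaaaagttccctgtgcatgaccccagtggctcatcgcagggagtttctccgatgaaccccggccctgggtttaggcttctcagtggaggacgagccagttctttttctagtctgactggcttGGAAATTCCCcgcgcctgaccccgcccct
Tnfaip3: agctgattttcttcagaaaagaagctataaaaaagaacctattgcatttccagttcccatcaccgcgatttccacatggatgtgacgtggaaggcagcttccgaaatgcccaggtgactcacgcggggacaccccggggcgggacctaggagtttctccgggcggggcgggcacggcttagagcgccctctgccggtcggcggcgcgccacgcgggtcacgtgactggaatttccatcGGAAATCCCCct
The Nfkbia match began at position -29 from the start. Tnfaip3 held matches at positions -12 and 34, the second lying after the start and outside the printed bases. In the window from 250 bases before to 50 after the start, 6.31% of 27018 genes with a RefSeq promoter held this motif, as did 11 of the 20 NF-κB genes with one. By promoter the share was 5.56% of 32841. A match is a string of letters and not a measured binding site.

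The other 3 called genes are short noncoding genes that were at 0 in every anti-β8 pool of the unnormalized table. They met the level in isotype only, as did Apol9b. Snord83b is a C/D box small nucleolar RNA, a class that guides methylation of ribosomal RNA. It was listed at 0 in all 3 anti-β8 pools, against 18.5, 23.1 and 40.9 FPKM in isotype before normalization (limma adjusted p = 0.00121). Mir1938, a microRNA precursor gene, was likewise at 0 in the 3 anti-β8 pools, against 35.8, 22.7 and 19.7 FPKM in isotype (limma adjusted p = 0.00121). Gm25313, a predicted small nuclear RNA gene, was at 0 in the same pools, against 25.5, 52.1 and 9.39 FPKM in isotype (limma adjusted p = 0.0408). Pool 1, with detection close to the isotype pools, shared all 3 differences. Gm25313 kept its call only without anti-β8 pool 1 or isotype pool 3, with a limma adjusted p up to 0.221. Snord83b is 94 nt long (chr15:80078498-80078591, minus strand), Mir1938 100 nt (chr12:40222712-40222811, minus strand) and Gm25313 116 nt (chr9:65196572-65196687, minus strand), all on GRCm38. FPKM are scaled to length, so few reads can give such values, and since the tables hold no counts the number of reads behind these calls is not known. No fold is given for them, since a fitted difference against 0 depends on the added constant.

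The Snord83b transcript and the mature product of Mir1938 are shown to identify the genes listed at 0 in anti-β8. In Snord83b (GENCODE M21) capitals mark TGATGA, the letters of the C box, and CTGA, those of the D box, which are found at 2 places. In mmu-miR-1938 (RefSeq, chr12:40222782-40222803) capitals mark the seed, bases 2 to 8.
Snord83b: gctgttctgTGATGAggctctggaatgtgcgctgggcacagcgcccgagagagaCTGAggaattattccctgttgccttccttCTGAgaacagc
mmu-miR-1938: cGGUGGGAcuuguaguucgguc
Both genes lie on the same strand inside an intron of a protein-coding gene, Snord83b in Rpl3 and Mir1938 in Ifrd1. Rpl3, which encodes a ribosomal protein, measured 776, 860.1 and 864 FPKM in anti-β8 and 700.3, 747 and 802 FPKM in isotype, so the groups overlapped. Ifrd1 measured 265, 302 and 135 FPKM in anti-β8 and 483, 310.2 and 405 FPKM in isotype, where all anti-β8 pools were lower (log2 difference -0.83, limma adjusted p = 0.424). Gm25313 lies inside an intron of Parp16 on the opposite strand, and Parp16 was under 1 FPKM in all 6 pools. The libraries do not mark strand, and small RNAs of this size and their hosts can share reads.

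The genes that make, hold, relay or inhibit TGF-β were mostly lower without passing the threshold. Itgav, the αv partner of β8, measured 212, 223 and 141 FPKM in anti-β8 and 362, 284 and 328 FPKM in isotype. Its groups did not overlap (-0.78 ± 0.19 log2, limma adjusted p = 0.351), and pool 1 shared the difference. Itgb8 itself, which Tregs also express, was low, at 6.89, 8.93 and 3.804 FPKM in anti-β8 and 10.8, 10.8 and 6.78 FPKM in isotype, and its groups overlapped, with pool 1 inside the isotype range. Lrrc32, which encodes GARP, measured 57.8, 60.3 and 18.2 FPKM in anti-β8, against 84.5, 58.2 and 74.1 FPKM in isotype. Anti-β8 pool 2 lay within the isotype range, while pool 1 was just below it. The cytokine gene Tgfb1 was at 112, 90.7 and 73.5 FPKM in anti-β8 and 134, 91.8 and 143 FPKM in isotype, overlapping, and pool 1 did not share its difference of -0.41 ± 0.24. Among signal modulators, Ski, a SMAD corepressor, measured 7.08, 9.24 and 3.04 FPKM in anti-β8 and 16.96, 17.8 and 14.8 FPKM in isotype (-1.33 ± 0.39, limma adjusted p = 0.389) with no overlap. Smad7, the inhibitory SMAD, had 60.9, 71.04 and 52.6 FPKM in anti-β8 and 87.1, 76.3 and 82.8 FPKM in isotype (-0.42 ± 0.18, limma adjusted p = 0.476), again without overlap. Pool 1 shared both. Nrros, a GARP relative that holds latent TGF-β in myeloid cells, measured 29.6, 50.6 and 18.995 FPKM in anti-β8 and 67.8, 50.6 and 50.1 FPKM in isotype (-0.84 ± 0.33), where pool 2 overlapped and pool 1 shared the difference. Of the 16 genes at the level, from 25 listed, 12 were below 0, with a median of -0.38 (-0.33 in pool 1), and 3 (18.8%, against 7.63% of all tested genes) were lower without overlap.

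Genes that TGF-β is known to induce or repress in T cells also leaned lower. The list mixes both kinds, so its median does not measure the strength of TGF-β signalling. Ski, Smad7 and Skil are counted in this list and in the one above. Of 23 such genes at the level, from 27 listed, 18 were below 0, and 9 (39.1%, against 7.63% of all tested genes) had all anti-β8 pools lower, while 1 had all higher. None passed the adjusted threshold. This list, like every other gene list described here, was chosen with earlier results of these data known. The directions and shares of the lists are thus not independent evidence. Ctla2a, an inhibitor of cysteine proteases that TGF-β induces in mouse cells, measured 150.02, 212 and 178 FPKM in anti-β8 and 354, 295 and 304 FPKM in isotype (-0.83 ± 0.15, limma adjusted p = 0.154). Pool 1 was the lowest of all 6 pools. Pmepa1, a feedback inhibitor of the pathway, measured 31.7, 22.97 and 18.6 FPKM in anti-β8 and 97.3, 57.05 and 65.1 FPKM in isotype (-1.54 ± 0.30, limma adjusted p = 0.222). Id2, an inhibitor of E proteins, measured 1109.5, 867 and 880.3 FPKM in anti-β8 and 1629, 1312 and 1467 FPKM in isotype (-0.63 ± 0.12, limma adjusted p = 0.177). Rgs16, a brake on G-protein signalling, was at 138, 122 and 151 FPKM in anti-β8 and 311, 166 and 222 FPKM in isotype (-0.72 ± 0.21). The groups of these 4 genes did not overlap, and pool 1 shared each difference. Itgae, which encodes CD103 and is induced by TGF-β in T cells, measured 18.02, 38.5 and 4.44 FPKM in anti-β8 and 65.9, 44.1 and 50.9 FPKM in isotype (-1.75 ± 0.56, limma adjusted p = 0.418). Pool 1 shared it, and the anti-β8 pools differed among themselves more than the isotype pools did. The median of the list was -0.44, and -0.32, -0.45 and -0.46 in the single anti-β8 pools, against -0.036 over all tested genes.

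Treg genes did not all point the same way. Foxp3 was higher in all 3 anti-β8 pools, at 0.40 ± 0.20 log2 (limma adjusted p = 0.509), and pool 1 shared this. Ikzf2, which encodes the Treg factor Helios, pointed the other way, at 77.97, 29.5 and 18.8 FPKM in anti-β8 and 116, 99.99 and 90.9 FPKM in isotype (-1.50 ± 0.40, limma adjusted p = 0.379). Pool 1 shared the direction at -0.38, a far smaller step than in pools 2 and 3. The suppressive cytokine gene Il10 measured 29.7, 5.73 and 15.4 FPKM in anti-β8 and 79.3, 54.3 and 43.7 FPKM in isotype (-1.96 ± 0.49, limma adjusted p = 0.351). All anti-β8 pools were lower, pool 1 at -0.93. Areg, which encodes the tissue-repair factor amphiregulin, measured 84.5, 59.996 and 40.004 FPKM in anti-β8 and 201, 152 and 143 FPKM in isotype (-1.46 ± 0.27, limma adjusted p = 0.177). No pools overlapped and pool 1 shared the difference at -0.94. Il2ra, the high-affinity receptor chain for interleukin 2, measured 94.4, 90.3 and 141 FPKM in anti-β8 and 150.3, 121 and 122 FPKM in isotype and overlapped through pool 3, although pool 1 lay below isotype. Of 25 Treg identity genes at the level, from 28 listed, 11 (44%, against 7.63% of all tested genes) had all anti-β8 pools lower and 3 (12%, against 7.34%) all higher, with a median of -0.43 (-0.38 in pool 1).

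Inhibitory and costimulatory receptors and their ligands lay below 0 in nearly every case, mostly with overlapping groups. Of 17 genes at the level, from 25 listed, 16 lay below 0, 5 of them without overlap (29.4%, against 7.63% of all tested genes), and the median was -0.47 (-0.27 in pool 1). Pdcd1, which encodes PD-1, measured 40.9, 65.2 and 38.6 FPKM in anti-β8 and 88.4, 73.4 and 106 FPKM in isotype (-0.90 ± 0.24, limma adjusted p = 0.368). Ctla4 measured 519, 471 and 518 FPKM in anti-β8 and 854, 598 and 700.3 FPKM in isotype (-0.50 ± 0.17, limma adjusted p = 0.427). Icos, a costimulatory receptor of the CD28 family, was at 189, 117 and 177 FPKM in anti-β8 and 345, 238 and 237 FPKM in isotype (-0.77 ± 0.21). The groups did not overlap for these 3 receptors, and pool 1 shared each. Cd80, a ligand of CTLA-4 and CD28 that activated T cells can carry, measured 9.63, 13.8 and 2.58 FPKM in anti-β8 and 26.9, 19.2 and 19.4 FPKM in isotype (-1.45 ± 0.49), without overlap and with pool 1 sharing the difference. None of these passed the adjusted threshold. The effector Treg receptor Ccr8 measured 366, 438 and 313 FPKM in anti-β8 and 607, 480.1 and 538 FPKM in isotype (-0.55 ± 0.16). The transcription factor gene Rora measured 254, 295 and 307 FPKM in anti-β8 and 471, 352 and 442 FPKM in isotype (-0.55 ± 0.14). Neither gene overlapped between the groups, and pool 1 shared both. The whole effector Treg list was near 0, at a median of -0.089.

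Among homing genes Ccr7, the receptor that guides T cells to lymph nodes, came nearest to the threshold. It measured 404, 278 and 343 FPKM in anti-β8 and 785, 592 and 689.8 FPKM in isotype, with means of 342 ± 62.7 and 689 ± 96.8 FPKM (SD, n = 3 pools each). The groups were far apart, and pool 1 shared the difference at -0.76 (-1.02 ± 0.15 over the 3 pools, limma adjusted p = 0.0543). Itgb7, the β7 chain of gut-homing integrins, measured 398, 244 and 368 FPKM in anti-β8 and 612, 487 and 518 FPKM in isotype (-0.70 ± 0.19). Cxcr4, the receptor for CXCL12, was at 42.8, 14.1 and 15.6 FPKM in anti-β8 and 55.9, 55.4 and 47.7 FPKM in isotype (-1.27 ± 0.35). Pool 1 shared both, for Cxcr4 at -0.30 only. Of 22 homing genes 17 were below 0 and 6 (27.3%, against 7.63% of all tested genes) were lower without overlap, with a median of -0.40 (-0.23 in pool 1, -0.72 in pool 2). In the list of naive and central memory genes, to which Ccr7 also belongs, 10 of 16 genes were above 0. Its member Foxp1, a factor of resting T cells, was higher in all anti-β8 pools at 101, 87.3 and 94.8 FPKM, against 84.7, 64.9 and 61.4 FPKM in isotype (0.43 ± 0.19), and pool 1 shared this.

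Activation and cytokine response genes were lower in several abundant members. Dusp2, an immediate-early phosphatase of MAP kinases, measured 208, 186 and 152 FPKM in anti-β8 and 414, 306 and 329.99 FPKM in isotype (-0.94 ± 0.19, limma adjusted p = 0.271). Jun, an AP-1 subunit, measured 88.2, 95.6 and 74.4 FPKM in anti-β8 and 154, 132 and 148 FPKM in isotype (-0.75 ± 0.18). Pool 1 shared both, and neither overlapped. Of the 28 AP-1 and early response genes 21 were below 0 (median -0.39, -0.25 in pool 1), with 7 lower and 2 higher without overlap. That is 25% and 7.14%, against 7.63% and 7.34% of all tested genes, so the higher share was that of all genes. The interferon-γ receptor gene Ifngr1 measured 358, 357 and 268 FPKM in anti-β8 and 714, 469.7 and 574 FPKM in isotype (-0.83 ± 0.17, limma adjusted p = 0.2996). Socs1, a feedback inhibitor of that pathway, was at 198, 149 and 138 FPKM in anti-β8 and 341, 236 and 259 FPKM in isotype (-0.78 ± 0.19). Tap2, a peptide transporter for MHC class I, was at 166, 119.97 and 138 FPKM in anti-β8 and 328, 219 and 235 FPKM in isotype (-0.87 ± 0.21). These 3 genes had no overlap and pool 1 shared each. Bst2, an interferon-induced antiviral protein, measured 304, 268 and 306 FPKM in anti-β8 and 438, 441 and 392 FPKM in isotype (-0.53 ± 0.13). Again no pools overlapped, and pool 1 shared the difference. Over 27 type I interferon genes 21 were below 0, with 8 lower and 2 higher without overlap (29.6% and 7.41%, against the same 7.63% and 7.34%). T cell receptor signalling genes had a median of 0.026, and within them Nfatc1, a calcium-driven transcription factor, was higher at 41.8, 31.6 and 44.1 FPKM in anti-β8 and 27.4, 19.7 and 23.9 FPKM in isotype (0.70 ± 0.25), with no overlap and pool 1 sharing it.

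Cell cycle genes lay below 0 in 33 of 37 cases, with a median of -0.51 (-0.39, -0.82 and -0.37 in the single anti-β8 pools). Of these, 7 were listed at 0 in anti-β8 pool 2 or 3, 8 met the level through 1 group only, and 5 (13.5%, against 7.63% of all tested genes) were lower without overlap. The member with the smallest p was Tmpo, a protein of the nuclear lamina, at 71.1, 51.7 and 56.4 FPKM in anti-β8 and 118, 117 and 124 FPKM in isotype (-1.001 ± 0.17, limma adjusted p = 0.134), which pool 1 shared at -0.74. Bub1b, a kinase of the spindle checkpoint, measured 0.869 FPKM in anti-β8 pool 1 and was listed at 0 in pools 2 and 3, against 3.39, 5.12 and 8.95 FPKM in isotype, so pool 1 shared its difference at -1.79. The summed FPKM of the list was 1528, 1299 and 1664 in anti-β8 and 1429.8, 2071 and 2292 in isotype, and these sums overlapped.

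Beyond the lists, the genes with the widest gap between the groups were mostly of low level (predicted genes such as Gm25313, pseudogenes and receptor segments were left out of this choice). The 12 lower ones included Snord83b, Mir1938, Apol9b, Tff1, Ncmap and Bub1b, described above. Apart from Tff1, Ncmap and Gzmc, the 12 met the level in isotype only, so they entered through the group where they are high. Their gap is thus partly built into the choice. Gzmc, a granule protease, measured 6.67, 7.52 and 10.98 FPKM in anti-β8 and 70.8, 43.3 and 35.2 FPKM in isotype (-2.40 ± 0.42, limma adjusted p = 0.134), and pool 1 was the lowest pool. Mmp14, a membrane-bound matrix protease, measured 4.22, 3.29 and 2.12 FPKM in anti-β8 and 12.7, 16.2 and 17.7 FPKM in isotype (-1.99 ± 0.38, limma adjusted p = 0.208). Ppfibp1, a liprin scaffold protein, was at 1.32, 1.19 and 1.17 FPKM in anti-β8 and 6.11, 9.27 and 6.41 FPKM in isotype (-1.87 ± 0.43). Those 3 genes were above 0 in every pool, and pool 1 shared each. The chemokine gene Ccl7 measured 1.52 FPKM in anti-β8 pool 1 and was listed at 0 in pools 2 and 3, against 7.64, 14.1 and 12.6 FPKM in isotype. Trmt5, a transfer RNA methyltransferase, measured 1.42 FPKM in anti-β8 pool 1 and was at 0 in the other two, against 5.38, 5.17 and 5.98 FPKM in isotype. Osr2, a zinc-finger transcription factor gene, measured 0.123 FPKM in pool 1 and was at 0 in the other two, against 1.804, 6.55 and 7.75 FPKM in isotype. Pool 1 shared these 3 differences, and none of them passed the adjusted threshold.

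Ccl7, Mmp14 and Osr2 are not typical T cell genes, and traces of stromal transcripts were present. Lum, a fibroblast proteoglycan, measured 0.963, 1.15 and 2.15 FPKM in anti-β8 and 5.15, 14.4 and 17.5 FPKM in isotype. Dcn, another one, measured 9.26, 21.2 and 30.9 FPKM in anti-β8 and 22.9, 76.7 and 66.3 FPKM in isotype. Of 10 fibroblast markers 4 met the level, 3 of them below 0, with a summed FPKM of 147, 207 and 212 in anti-β8 and 140.4, 318 and 259 in isotype. Thy1, which T cells also express, made up much of that sum. The other listed fibroblast markers were low or absent in both groups. Fap was listed at 0 in every anti-β8 and isotype pool before normalization. Pdgfrb, Col1a2 and Postn stayed under 1 FPKM in each of these pools before normalization. Pdgfra and Col1a1 reached at most 1.23 and 2.85 FPKM, both in isotype pool 3. The sums overlapped between the groups, and the part of fibroblast RNA in these differences was not tested.

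**Figure D4:**
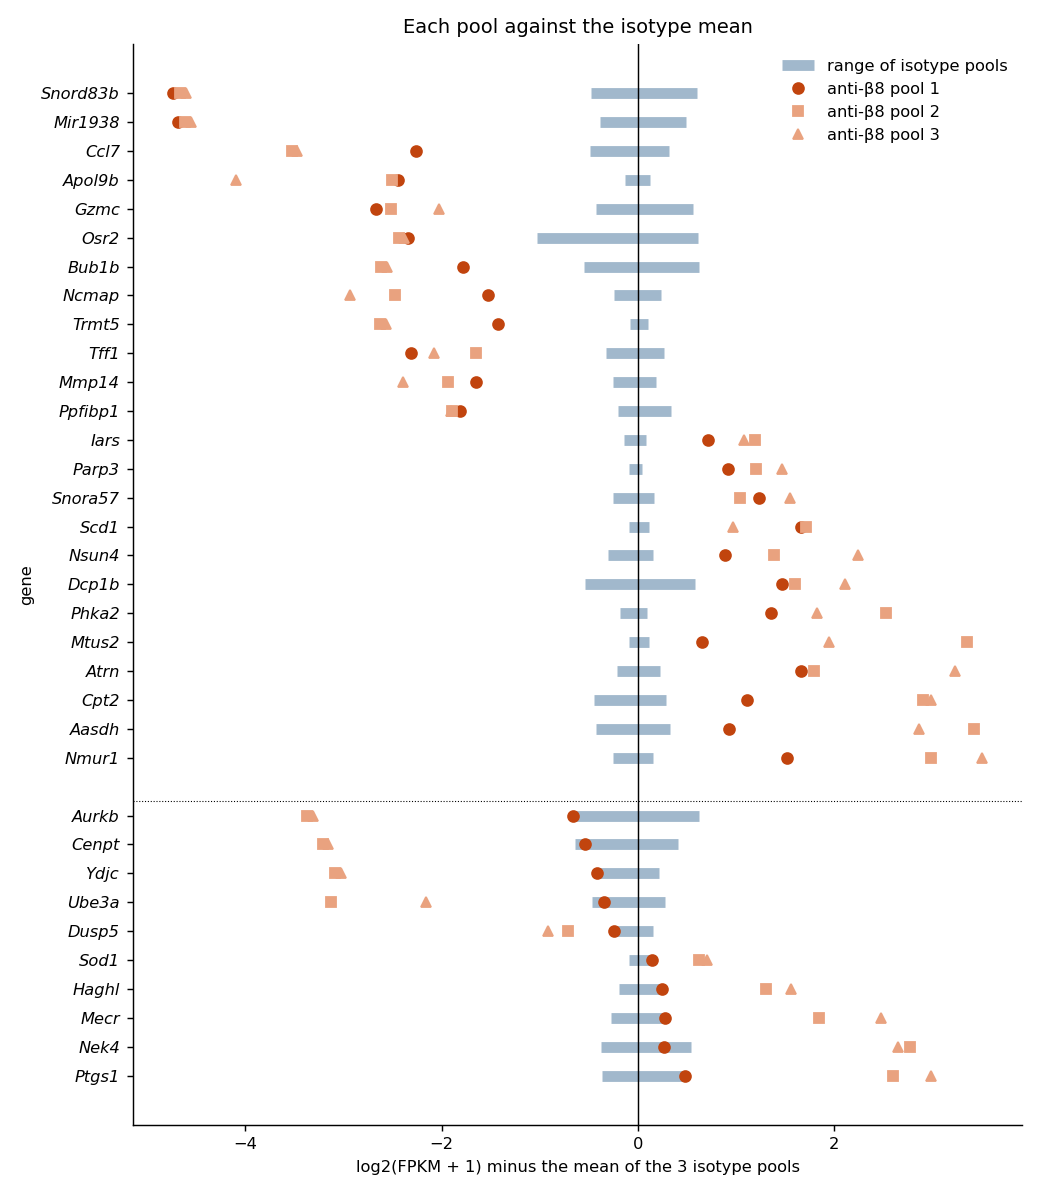
Each anti-β8 pool minus the isotype mean on the log2(FPKM + 1) scale for the genes with the widest gaps, predicted genes and pseudogenes left out (above the dotted line, 12 lower and 12 higher) and for 10 genes whose difference pool 1 did not share (below it); blue bars show the range of the 3 isotype pools. Above the line pool 1 (dark circles) lies outside every blue bar, whereas below it pool 1 lies at or inside the bar.

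The genes with the widest gaps upward were mostly low as well. Apart from Snora57, Parp3 and Nsun4, they met the level in anti-β8 only, so they entered through the group where they are high. Their gap is thus partly built into the choice. Nmur1, the receptor for neuromedin U, measured 2.43, 8.44 and 12.6 FPKM in anti-β8, against 0.3301 and 0.278 FPKM in isotype pools 1 and 3 and a listed 0 in isotype pool 2 (limma adjusted p = 0.322). Cpt2, an enzyme of mitochondrial fatty acid oxidation, measured 3.095, 13.2 and 14.1 FPKM in anti-β8 and 1.11, 1.32 and 0.391 FPKM in isotype (2.34 ± 0.67). Scd1, the stearoyl-CoA desaturase, was at 8.33, 8.66 and 4.75 FPKM in anti-β8 and 2.18, 1.75 and 1.902 FPKM in isotype (1.45 ± 0.53). In these 3 genes the pools did not overlap, and pool 1 shared the difference. For Nmur1 and Cpt2 pools 2 and 3 were several times higher than pool 1, for Scd1 they were not. Snora57, a small nucleolar RNA gene, was the most abundant of the group, at 69.995, 60.9 and 87.2 FPKM in anti-β8 and 31.1, 24.3 and 32.7 FPKM in isotype (1.27 ± 0.30, limma adjusted p = 0.351), with pool 1 in the middle of the anti-β8 pools. Parp3, of the poly-ADP-ribose polymerase family, measured 14.9, 18.5 and 22.5 FPKM in anti-β8 and 7.72, 7.72 and 6.95 FPKM in isotype (1.20 ± 0.47). Nsun4, a methyltransferase of mitochondrial ribosomal RNA, measured 14.8, 21.4 and 39.6 FPKM in anti-β8 and 8.53, 5.93 and 8.44 FPKM in isotype (1.51 ± 0.43). Pool 1 shared both. The other genes, Atrn, Phka2, Dcp1b, Iars, Aasdh and Mtus2, had log2 differences between 0.99 for Iars and 2.41 for Aasdh, with pool 1 between 0.65 for Mtus2 and 1.66 for Atrn. Pool 1 shared each of these, and none of the 12 passed the adjusted threshold.

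Some differences with an unadjusted limma p under 0.05 were not shared by pool 1. Aurkb, a mitotic kinase, measured 5.87 FPKM in anti-β8 pool 1 and was listed at 0 in pools 2 and 3, against 5.87, 10.1 and 15.8 FPKM in isotype. Cenpt, a kinetochore protein, measured 5.703 FPKM in pool 1 and was at 0 in the other two, against 5.24, 11.99 and 10.5 FPKM in isotype. Ydjc measured 5.67 FPKM in pool 1 and was at 0 in the other two, against 5.66, 9.29 and 9.32 FPKM in isotype. In all 3 genes pool 1 lay at or inside the isotype range. Ube3a, a ubiquitin ligase, measured 25.3, 2.83 and 6.47 FPKM in anti-β8 and 37.3, 39.4 and 23.1 FPKM in isotype. Dusp5, a phosphatase of ERK, measured 469.7, 337 and 293 FPKM in anti-β8 and 617, 466 and 595 FPKM in isotype. Pool 1 lay inside the isotype range for both. Upward, Sod1, the cytosolic superoxide dismutase, measured 231, 322 and 341 FPKM in anti-β8 and 196, 236 and 196 FPKM in isotype. Ptgs1, which encodes cyclooxygenase 1, measured 3.46, 18.3 and 24.3 FPKM in anti-β8 and 1.94, 1.49 and 3.47 FPKM in isotype. Mecr, an enzyme of mitochondrial fatty acid synthesis, measured 11.6, 36.5 and 56.8 FPKM in anti-β8 and 7.62, 11.9 and 9.12 FPKM in isotype. Pool 1 overlapped isotype in each of them. Haghl and Nek4 were of the same kind, with log2 differences of 1.04 and 1.90 over the 3 pools and 0.25 and 0.27 in pool 1.

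Ribosomal protein and glycolysis genes leaned higher. Of 42 cytosolic ribosomal protein genes 38 were above 0 and 12 (28.6%, against 7.34% of all tested genes) were higher without overlap. Among the 8508 genes, those averaging 300 FPKM or more over the 9 libraries had a larger share of 10.4% higher without overlap. The median of the ribosomal protein list was 0.18 and nearly the same in pool 1 (0.15). Rps7 measured 709.5, 842 and 823 FPKM in anti-β8 and 605, 587 and 626 FPKM in isotype (0.38 ± 0.099, limma adjusted p = 0.353). Rpl14 measured 594, 714 and 714 FPKM in anti-β8 and 462, 547 and 516 FPKM in isotype (0.40 ± 0.11). Pool 1 shared both differences, which were small beside those of the lower genes. Ribosomal protein genes have many processed pseudogenes, so reads may be split. Gapdh, an enzyme of glycolysis, measured 2188, 3094 and 2969.8 FPKM in anti-β8 and 1896, 1989 and 2024 FPKM in isotype (0.47 ± 0.12, limma adjusted p = 0.351). Aldoc, an aldolase, measured 37.6, 60.7 and 52.3 FPKM in anti-β8 and 28.1, 30.2 and 24.4 FPKM in isotype (0.82 ± 0.24). No pools overlapped, and pool 1 shared both, for Gapdh at 0.15. The 20 glycolysis genes had a median of 0.14, with 13 above and 7 below 0. Of these, 4 were higher (20%, against 7.34% of all tested genes) and 0 lower without overlap. All 11 mitochondrially encoded genes were above 0, with a median of 0.63. In single pools it was 0.11 in pool 1, 0.86 in pool 2 and 0.91 in pool 3, so pool 1 lay near isotype. The mitochondrial share of the unnormalized FPKM was 1.02%, 1.27% and 1.53% in anti-β8, against 0.835%, 1.1002% and 1.13% in isotype. Whether RNA quality has a part in this was not tested.

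The lists differed in how evenly the anti-β8 pools carried them. TGF-β response, Treg identity, checkpoint, AP-1, type I interferon and cell cycle genes had medians below 0 in each of the 3 pools. So did genes that make, hold, relay or inhibit TGF-β. The homing, JAK-STAT, heat shock, unfolded protein response, cytotoxic and Th17 and Th2 lists did too, some by little. Ribosomal protein, glycolysis and mitochondrially encoded genes had medians above 0 in each pool. Cholesterol synthesis genes had a median of -0.50, but 0.048 in pool 1. Within that list Fdps, a synthase of the isoprenoid branch, was higher at 92.6, 79.04 and 124 FPKM in anti-β8 and 68.8, 70.5 and 64.2 FPKM in isotype (0.51 ± 0.22). Hmgcs1, an early enzyme of the pathway, was lower at 6.35, 6.45 and 4.59 FPKM in anti-β8 and 11.7, 10.8 and 8.99 FPKM in isotype (-0.76 ± 0.34). Pool 1 shared both, so members of 1 pathway pointed in different directions. Sc5d, a late enzyme, measured 13.4 and 1.32 FPKM in anti-β8 pools 1 and 2 and was listed at 0 in pool 3, against 12.95, 11.5 and 12.9 FPKM in isotype, so pool 1 lay on the other side. Some genes belong to several lists. The proteasome, GIMAP, respiratory chain and S100, galectin and annexin lists had medians of 0.059, -0.022, -0.032 and -0.078, and the last 3 of these turned positive in unnormalized FPKM (0.0075, 0.031 and 0.036). Heat shock genes had a median of -0.20, led by Hspa1a at 12.4, 5.92 and 7.98 FPKM in anti-β8 and 21.4, 24.4 and 43.98 FPKM in isotype (-1.65 ± 0.36, limma adjusted p = 0.311), without overlap and shared by pool 1. Hspa1b is near-identical to Hspa1a, and the 2 can share reads. Unfolded protein response genes had a median of -0.16, JAK-STAT genes -0.18, interferon-γ and MHC class I genes -0.053, cytotoxic genes -0.085 and Th17 and Th2 genes -0.37 (-0.061 in pool 1).

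**Figure D5:**
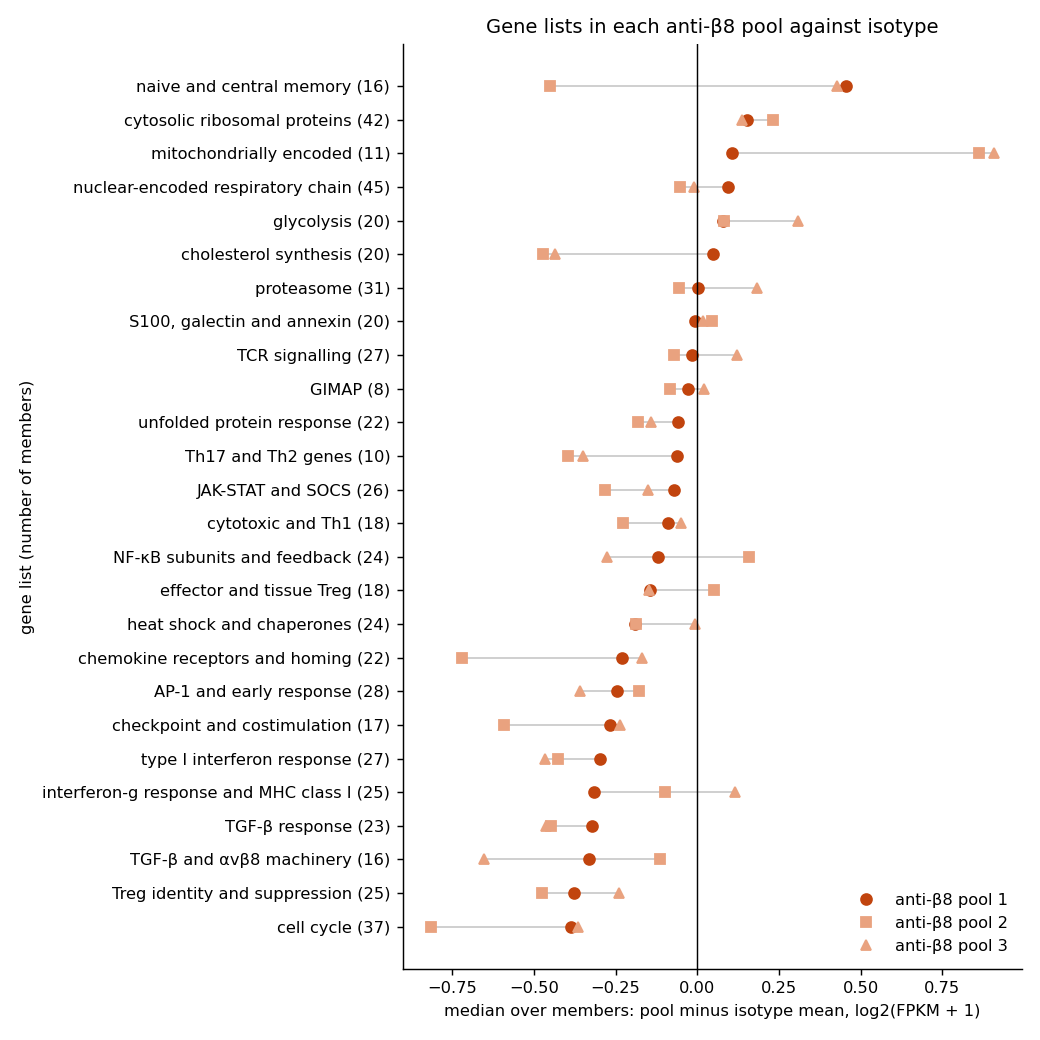
Median over the members of each gene list of the log2(FPKM + 1) value in 1 anti-β8 pool minus the isotype mean, for pools 1 (dark circles), 2 (squares) and 3 (triangles); lists are ordered by pool 1. Cell cycle, Treg identity and TGF-β response lie to the left of 0 in all 3 pools, and mitochondrially encoded genes lie at 0.11 in pool 1 but at 0.86 and 0.91 in pools 2 and 3.

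Some markers of other cells were present in both groups, a few of them at levels above that of Foxp3. Each sum below covers only the tested markers of its list. Of 13 B and plasma cell markers 10 met the level and 8 of these lay above 0, with a summed FPKM of 1739, 1076 and 1186 in anti-β8 and 1097, 700.5 and 1588 in isotype. Igkc, an immunoglobulin light chain gene, held most of that sum at 1124, 642 and 647 FPKM in anti-β8 and 702, 372 and 1078 FPKM in isotype. Ighm, a heavy chain gene, measured 379, 292 and 397 FPKM in anti-β8 and 297, 281 and 358 FPKM in isotype, and both genes overlapped between the groups. Cd79a, a B cell receptor subunit, measured 93.2, 70.6 and 66.1 FPKM in anti-β8 and 28.3, 7.53 and 59.1 FPKM in isotype (1.64 ± 0.66). Cd22, a B cell lectin that met the level in anti-β8 only, measured 5.65, 10.02 and 11.8 FPKM in anti-β8 and 1.53, 0.08401 and 3.93 FPKM in isotype (2.04 ± 0.58). The pools did not overlap for either gene and pool 1 shared both, while the sums overlapped. Macrophage, monocyte and dendritic cell markers summed to 977, 916 and 528 FPKM in anti-β8 and 1094, 559 and 398 FPKM in isotype. Of 14 of them at the level 6 lay above and 8 below 0, with a median of -0.26 and none without overlap. The most abundant, Lyz2, measured 541, 427 and 335 FPKM in anti-β8 and 489, 197 and 138 FPKM in isotype (0.84 ± 0.42). Ccr2, Arg1 and Spp1 had log2 differences of -0.55, -1.28 and -0.70. CD8 T and NK markers summed to 78.3, 47.8 and 78.5 FPKM in anti-β8 and 85.8, 51.01 and 35.3 FPKM in isotype. Tumour and epithelial markers summed to 45.3, 176 and 40.7 FPKM in anti-β8 and 72.8, 119 and 90.5 FPKM in isotype. Only 2 of 8 endothelial markers were tested. They summed to 13.1, 12.8 and 16.1 FPKM in anti-β8 and 10.4, 12.96 and 12.8 FPKM in isotype. Pecam1 made up most of this, while Cdh5, Kdr, Tek, Emcn and Cldn5 were under 1 FPKM in all 6 pools. Among neutrophil markers Camp and Retnlg were listed at 0 in all 6 pools, while Ltf measured 33.7, 55.02 and 81.8 FPKM in anti-β8 and 89.3, 50.5 and 53.4 FPKM in isotype. Of 7 erythroid and platelet markers 4 met the level, all at 0 in anti-β8 pool 3. All of these sums overlapped between the groups, and the part of other cells in the differences above was not tested.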

How the data were processed

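Tregs were measured by bulk RNA sequencing in 3 anti-β8 and 3 isotype pools, with 3 mock pools for the spread. RNA was isolated from sorted cells, amplified with SMART-Seq v4 and made into Nextera XT libraries without molecular identifiers, per the labels' protocols. Per the submitters' processing notes, the tools were RSEM 1.3.1, STAR 2.6.1a, Cufflinks, Picard and Trim Galore 0.5.0, and the build was GRCm38. The authors deposited FPKM per gene as 2 tables, unnormalized and normalized. In the normalized table the libraries share nearly the same distribution of values, so an overall shift between groups is removed, and tied low values take a small positive value. No read counts were used here, so the sequencing depth is unknown and no counting error can be given.

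The members and gene lists were chosen with earlier results of these data known. Differences were fitted on log2(FPKM + 1) with limma 3.58.1 in R 4.3.3 over all 9 libraries (trend and robust settings, two-sided), for 12555 genes at 1 FPKM or more in at least 3 libraries, with Benjamini-Hochberg adjustment over all of them. On this scale differences of low genes are understated. The fit was also run on simulated data in which each gene had the same spread in all groups. That run does not cover the wider spread of the anti-β8 pools seen here. Named genes were those past the adjusted threshold, the 12 with the widest gap in each direction (unadjusted p under 0.05, no predicted genes, pseudogenes or receptor and immunoglobulin segments), a list of Treg and TGF-β genes, up to 4 per list by p-value, and 5 per direction with the smallest p among those that pool 1 did not share. Alternatives varied the table, constant, filter, level, fit and libraries. Mature miRNA and promoter sequences are from RefSeq (GRCm38.p6), Snord83b from GENCODE M21 (GRCm38). Replicate numbers were not used as pairs.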

Additional observations from a re-analysis of the deposited data

How the results depend on the processing

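The count of 7 genes past the adjusted limma threshold was 12 with pool 1 standing alone for anti-β8, where this lone pool is assumed to vary like the other groups. Nfkbia, Ncmap and Gm25313 were not among the 12, so the 7 were not simply kept and extended there. The count was 3 with only the 6 libraries compared, where Snord83b and Mir1938 were the only ones from the 7. It was 3 with a constant of 0.1 as well. With only genes above 0 in all 9 libraries, an alternative chosen after seeing the data, it was also 3. It was 2 without the trend and robust settings, 2 with unnormalized FPKM, 2 with unnormalized FPKM scaled to the upper quartile and 2 with replicate numbers as a block. With 1 library left out at a time it ranged from 2 to 137. The count of 933 genes at an unadjusted p under 0.05 was 473 with pool 1 alone, 516 with array weights and 546 for the smaller set of 4439 genes of at least 20 FPKM, and ranged from 556 to 1795 with 1 library left out. Array weights, no filter, a constant of 5 and other level limits gave 6 to 8 genes at the adjusted threshold. Snord83b and Mir1938 passed in the block fit as well. Of the 123 named genes that had an unadjusted p under 0.05 or were named by another rule than the 4 per list, 121 kept their direction in each of 20 settings they entered. Genes above 0 in all 9 libraries included only 101 of them. The exceptions, with pool 1 alone, were Sc5d at 0.10 and Tmsb4x at 0.0. Unnormalized FPKM moved the median of all tested genes to -0.20 from -0.036, and Foxp3 (0.42), Rps7 (0.45) and Gapdh (0.48) were higher in anti-β8 in that table as well. Medians of the ribosomal protein, glycolysis, TGF-β response and cell cycle lists were 0.27, 0.18, -0.42 and -0.59 there.

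The labels do not say that equal replicate numbers mark pairs. Deviations of same-numbered anti-β8 and isotype pools correlated at 0.029, 0.016 and 0.019 across genes, and although each pool correlated best with its own number, all values were under 0.1 and the numbers were not read as pairs.

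Since the tables hold no counts, a value of 0 in anti-β8 pools 2 and 3, which detected fewer genes, has no stated detection limit, and genes under about 100 FPKM were measured with a wider spread in anti-β8 than in isotype.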

Other observations

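Processed pseudogenes, which are copies of messenger RNAs without introns, mostly lay higher in anti-β8, though none passed the adjusted threshold. Of 186 such genes at 5 FPKM or more, 51 had all anti-β8 pools above all isotype pools and 1 had all below, which is 27.4% and 0.538%, against 6.39% and 7.91% of the 7684 protein-coding genes. Their median log2 difference was 0.46 over the group, and 0.30, 0.57 and 0.52 in anti-β8 pools 1, 2 and 3, so pool 1 had it too. The 39 pseudogenes named after a ribosomal protein gene (median 0.47, 9 higher and 0 lower without overlap) and the other 147 (median 0.43, 42 higher and 1 lower) had close medians. No test of the class was made. How many of the 186 met the level in 1 group only was not counted, and for such genes part of the difference is built into the choice. Reads of a processed pseudogene are shared with its parent gene, so these values are uncertain, and how the authors' counting divided such reads was not tested.

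The medians of small RNA genes lay below 0. The median log2 difference was -0.65 for 53 small nucleolar RNA genes (4 lower without overlap, or 7.55%, and 1 higher, or 1.89%) and -1.11 for 26 small nuclear RNA genes (7 lower, or 26.9%, and 1 higher, or 3.85%). Over all tested genes these shares were 7.63% lower and 7.34% higher, so that of lower small nucleolar RNA genes was near the share of all genes. In anti-β8 pool 1 these medians were -0.88 and -0.40. By length, the 174 genes with under 200 nt of exons had a median of -0.42, and the 679 genes of 200 to 1000 nt a median of 0.10. Protein-coding genes varied little with length, with medians between -0.073 and -0.046 over 5 length bins. Long noncoding genes of the lincRNA class were lower without overlap in 11 of 72 cases (15.3%) and higher in 4 (5.56%), against the same shares of all tested genes. How many genes of these classes and lengths met the level in 1 group only was not counted. For such genes, among them Snord83b and Gm25313 through isotype, part of the difference is built into the choice.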
